A study of Homo sapiens with 4 samples.

Results

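Integrins and laminins are the receptors and the ligands through which epithelial cells hold on to the basement membrane. Their genes were taken from the array by name, as every integrin alpha gene, the genes ITGB1 to ITGB8 and the laminin chain genes LAMA1 to LAMC3. The rule found 38 genes among the 27193 gene names on the array, 26 of them integrins and 12 laminins, measured by 54 probes in 90 spots. The arrays compared 2 samples of MCF10A.B2 cells, called control, with 2 samples of the line carrying a PAK1-directed shRNA, called PAK1 shRNA. MCF10A.B2 is the MCF10A breast epithelial line carrying a chimeric ErbB2 (Her2) receptor that a synthetic dimerizer, AP1510, switches on. The shRNA was tetracycline inducible, and the other group is labelled just control, so whether it was the parental line or shRNA cells without induction cannot be told apart. Cells of both groups were deprived of serum for 3 h and then given AP1510 for 15 min, so every value below comes from cells in which the receptor had been activated. The series description speaks of cells from tumors whereas the sample labels name the cell line, and nothing states whether the replicates were separate cultures. The p-values therefore measure the spread between these samples, which may be technical.

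An integrin is a pair of one alpha and one beta chain that spans the cell membrane, and the pairing decides which ligand is bound. A laminin is a trimer of one alpha, one beta and one gamma chain, laid down in the basement membrane together with type IV collagen, nidogen and proteoglycans. Basal mammary cells secrete a laminin that holds LAMA3 and LAMB3 and bind it through ITGA3 with ITGB1 and, at hemidesmosomes, through ITGA6 with ITGB4. PAK1 is a serine/threonine kinase that acts below the small GTPases Rac and Cdc42 on the actin cytoskeleton and on cell adhesion.

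All 4 samples were hybridized in 1 colour on 1 slide, and 78.9% to 83.2% of probes were well above background. PAK1 itself had a log2 intensity of 11.19 and 11.27 in control cells against 10.44 and 10.52 in PAK1 shRNA samples. It differed by -0.75 (standard error, SE, 0.08, adjusted p = 0.000182) on the log2 scale in limma, which left 59.5% of the control level. Unless another setting is named, adjusted p-values come from this limma fit, Benjamini-Hochberg adjusted over 22001 genes (separate probes of a gene were fitted likewise over all probes kept), and a gene is called higher or lower in PAK1 shRNA cells where it is under 0.05. Fold changes are PAK1 shRNA over control. Levels are normalized log2 intensities, which compare 1 probe between arrays and not 1 gene with another. For 1 gene, the smallest p that exact permutation of 2 against 2 arrays allows is 0.333 (two-sided). In cells measured in bulk, fewer cells of a type and less RNA per cell cannot be told apart.

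The cells carried the markers of basal mammary epithelium, all 8 of which were well above background on all 4 arrays. Their summed linear level was 313000 to 348000 on the control arrays and 270000 to 275000 on the PAK1 shRNA arrays. KRT5, KRT14, KRT17, TP63 and EGFR were lower, with log2 fold changes of -1.14, -0.95, -0.72, -1.13 and -0.55. The cadherins CDH3 and CDH1 were higher, at 0.90 and 0.98, and EPCAM was at -0.06 and was not called.

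Of the 38 genes, 36 passed the filter on dim probes and were tested. ITGA8, an integrin alpha chain of mesenchymal cells, and LAMB4 were not well above background on any array. In PAK1 shRNA cells 24 genes were higher, 2 were lower and 10 were not called. Over all genes tested, 31.0% were higher and 31.9% lower, 62.9% in either direction, against 66.7% and 5.56% of the integrin and laminin genes. The median log2 fold change of the 36 genes was 0.587, a 1.5-fold difference, where that of all genes tested was 0.0195. Both PAK1 shRNA arrays lay above both control arrays for 25 of the 36 genes, which 42.1% of all genes did, and below them for 4, which 39.7% did. At least 2-fold differences were reached by 11 higher and 2 lower genes, against 8.85% and 8.96% of all genes. With no filter all 38 genes were tested, of which 23 were higher and 2 lower, where 24.3% and 25.4% of all genes were. With probes kept only if well above background on all 4 arrays, 34 genes were tested and 22 were higher and 2 lower, against 31.8% and 32.4% of all genes. The number of higher genes was between 17 and 25 under the other fits tried, where 19.9% to 38.4% of all genes were higher. Both lowest values came with the unpaired t-test of the study's statistics section. Under that test only ITGA4 was lower, where 21.7% of all genes were.

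**Figure D1:**
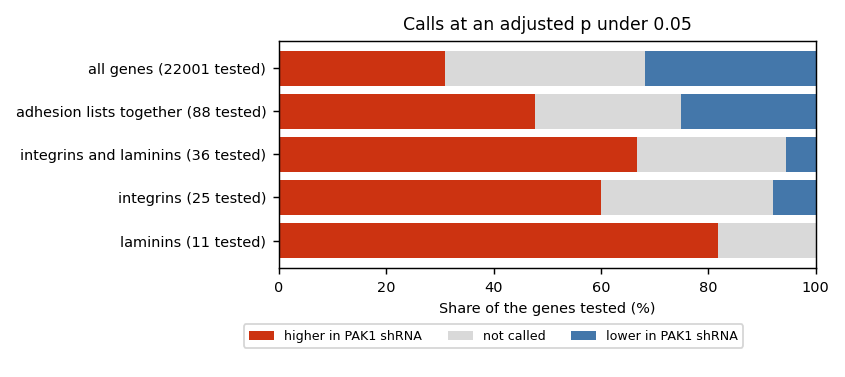
Share of the genes tested that were higher (red), lower (blue) or not called (grey) in PAK1 shRNA cells at an adjusted p under 0.05, for all 22001 genes, for the adhesion lists together, and for the integrin and laminin genes. The integrin and laminin genes had 24 higher and 2 lower of 36, and no laminin gene was lower.

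**Figure D2:**
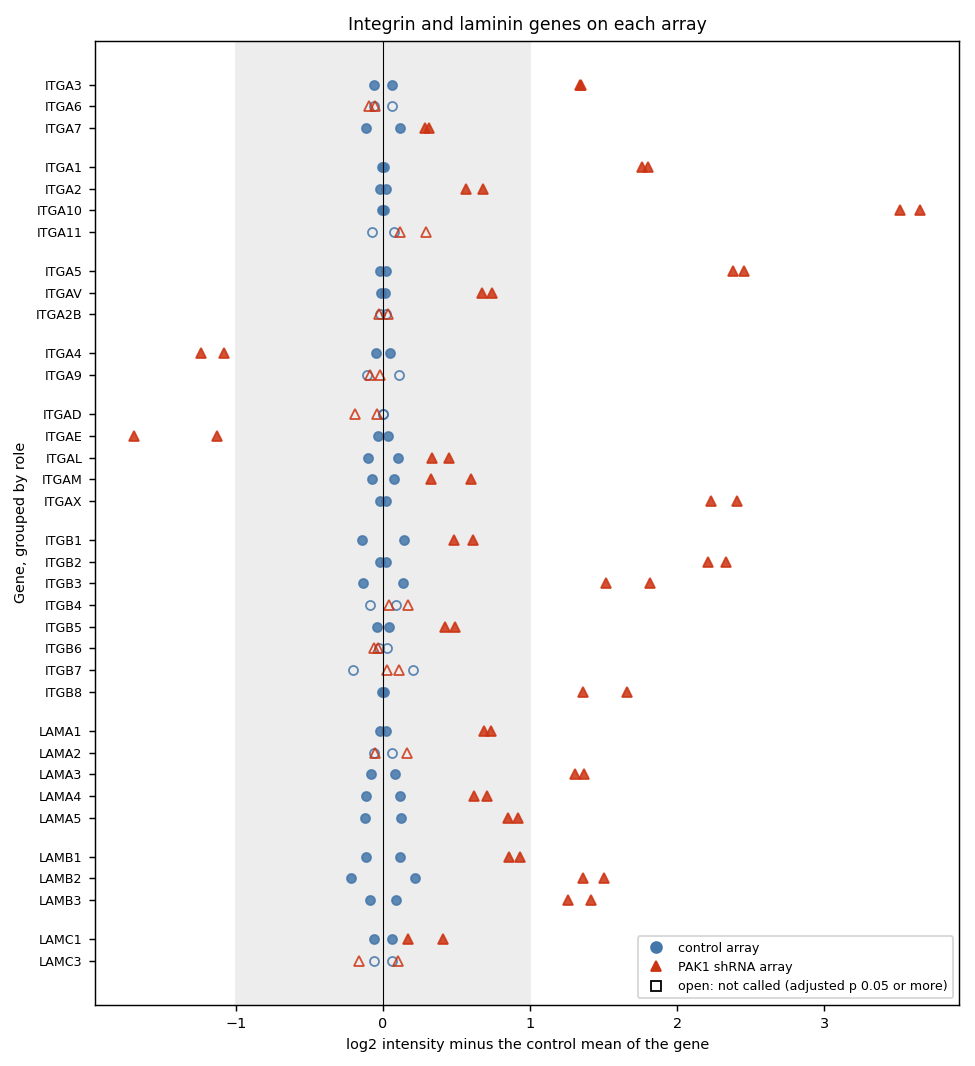
Normalized log2 intensity of the integrin and laminin genes named in the text on each array, as the difference from that gene's mean over the control arrays. Circles are the 2 control arrays, triangles the 2 PAK1 shRNA arrays, open symbols genes that were not called, and the grey band marks differences under 2-fold. ITGA10 lay farthest to the right, at 3.58, and ITGAE and ITGA4 were the only genes called to the left.

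The laminin chains were tested for 11 genes, of which 9 were higher and none was lower, against 31.0% and 31.9% of all genes tested. Of the 11 tested, 3 (27.3%) were at least 2-fold higher, as 8.85% of all genes tested were. LAMA3 and LAMB3, of the laminin that basal epithelial cells secrete, were both higher. LAMB3, its beta chain, had a log2 intensity of 17.07 and 16.90 in control cells against 18.24 and 18.40 in PAK1 shRNA samples. The log2 fold change was 1.34 (SE 0.10, adjusted p = 3.94e-05), or 2.53-fold. LAMA3, its alpha chain, was at 15.20 and 15.05 in control cells against 16.43 and 16.49 in PAK1 shRNA samples, with a log2 fold change of 1.34 (SE 0.08, adjusted p = 2.2e-05). A second LAMA3 probe gave 0.12 and was not called, and the mean over both probes was 0.73. For LAMB3 and the first LAMA3 probe the PAK1 shRNA arrays lay more than 1 log2 unit above either control array, and the arrays of a group lay close together.

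LAMB2, the beta chain of laminins in basement membranes of muscle, nerve and kidney, read 15.06 and 14.62 in control cells against 16.34 and 16.20 in PAK1 shRNA samples. Its log2 fold change was 1.43 (SE 0.15, adjusted p = 0.00019) and that of its other probe 1.31. The control arrays of LAMB2 lay further apart than those of the other laminin genes called, without reaching the PAK1 shRNA arrays, and under the unpaired t-test its adjusted p was 0.0563. LAMA5, the alpha chain most epithelia share, was higher by 0.89 on the log2 scale, and LAMB1, the common beta chain, by 0.89, on 1 of its 2 probes. LAMA1, the alpha chain of the embryonic basement membrane, differed by 0.71 and LAMA4, the alpha chain of vessels and muscle, by 0.66, the latter with an adjusted p of 0.0654 under the unpaired t-test. LAMC1, the gamma chain of most laminins, read 13.84 and 13.71 in control cells against 14.18 and 13.94 in PAK1 shRNA samples. Its log2 fold change of 0.29 (SE 0.10, adjusted p = 0.0478) was close to the threshold, and its adjusted p was 0.0629 without control replicate 1, 0.204 without control replicate 2 and 0.25 without PAK1 shRNA replicate 1, which put the fold change at 0.17. LAMA2, the alpha chain of muscle laminin, and LAMC3 were not called, with log2 fold changes of 0.06 (95% interval -0.18 to 0.30) and -0.03 (-0.29 to 0.23).

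The promoters of these genes were read in the RefSeq table of GRCh38.p14, which held 33 promoters of 26 of the 38 genes, each from 250 bases before to 50 after the gene's start. The letters TGANTCA, which the AP-1 factors bind, were searched on both strands, where they read the same. They occurred in 3 of the 33 promoters, or 9.09%, and in 7.71% of the 35116 promoters in the table. The 3 promoters belonged to LAMB3, LAMA3 and ITGA5, and they are shown because they hold a match. On the probe that stands for the gene all were more than 2-fold higher, where 30.6% of the tested integrin and laminin genes were at least 2-fold higher. The second LAMA3 probe was at 0.12 and was not called, and which start each probe reports was not analysed. A link between the match and the difference was not tested. Each line gives the 250 bases before the start and the first 10 after it, 5′ to 3′ on the gene's strand, with the matches in capitals. The match began 67 bases before the start in LAMB3, 125 and 69 bases before it in LAMA3 and 6 bases before it in ITGA5.
LAMB3, chr1:209651365-209651624, - strand: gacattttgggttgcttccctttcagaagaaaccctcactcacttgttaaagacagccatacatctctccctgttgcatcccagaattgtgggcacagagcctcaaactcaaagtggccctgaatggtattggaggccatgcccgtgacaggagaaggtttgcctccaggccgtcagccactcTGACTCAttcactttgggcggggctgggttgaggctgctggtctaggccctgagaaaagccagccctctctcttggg
LAMA3, chr18:23872770-23873029, + strand: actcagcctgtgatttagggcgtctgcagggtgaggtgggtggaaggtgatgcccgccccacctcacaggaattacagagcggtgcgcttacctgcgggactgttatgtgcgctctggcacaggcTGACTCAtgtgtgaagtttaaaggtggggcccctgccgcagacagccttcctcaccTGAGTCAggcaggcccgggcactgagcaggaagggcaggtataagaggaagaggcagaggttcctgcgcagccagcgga
ITGA5, chr12:54419257-54419516, - strand: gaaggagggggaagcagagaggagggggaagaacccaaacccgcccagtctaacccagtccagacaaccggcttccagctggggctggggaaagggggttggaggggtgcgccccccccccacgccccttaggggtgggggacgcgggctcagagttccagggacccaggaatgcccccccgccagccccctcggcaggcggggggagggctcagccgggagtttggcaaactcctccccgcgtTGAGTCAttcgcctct
The interferon response motif, searched on both strands as GAAA and GAAA with 2 bases between them, was found in 3.03% of the members' promoters and in 3.57% of all promoters. The NF-kB motif, searched as GGG and CC with 5 bases between them on either strand, was found in 75.8% against 58.7%, and the TATA box letters TATAAA in 6.06% against 11.5%. A match describes these letters and not a bound site. ITGA3, ITGA7, ITGA9, ITGAD, ITGAL, ITGAX, ITGB2, ITGB3, ITGB4, LAMA1 and LAMC3 had no entry.

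Integrin genes were tested for 25 of 26, with 15 higher and 2 lower, against 31.0% and 31.9% of all genes tested. Their median log2 fold change was 0.458. The higher genes include ITGB3 and ITGAL, which passed the filter only through the PAK1 shRNA arrays, as described below. Of the receptor chains that bind the basal laminin, ITGA3 and ITGB1 were called higher, and ITGA6 and ITGB4 were not called. ITGA3, which pairs with ITGB1 to bind it, had a log2 intensity of 14.12 and 13.99 in control cells against 15.39 and 15.40 in PAK1 shRNA samples. That is a log2 fold change of 1.34 (SE 0.08, adjusted p = 1.64e-05). The PAK1 shRNA arrays agreed closely and lay above both control arrays. ITGA6, the alpha chain of the hemidesmosome receptor, was at 14.62 and 14.50 in control cells against 14.47 and 14.51 in PAK1 shRNA samples, and its groups overlapped. The log2 fold change was -0.07 (95% interval -0.26 to 0.12), and the separate ITGA6 probe gave -0.03. ITGB4, its partner, was at 16.68 and 16.50 in control cells against 16.76 and 16.63 in PAK1 shRNA samples, again with overlapping groups, and at 0.11 (-0.12 to 0.33) it was not called. Cyclic loess in place of quantile normalization put ITGB4 at 0.26 and past the threshold (adjusted p = 0.0447). ITGA7, the laminin receptor of muscle, differed by 0.30 (SE 0.09, adjusted p = 0.0299). The call of ITGA7 was lost with median centring (0.19, adjusted p = 0.122) and with the processed signal scaled to its 75th percentile (adjusted p = 0.0672). Under the unpaired t-test its adjusted p was 0.176. The log2 fold change was 0.19 without control replicate 2, 0.29 without PAK1 shRNA replicate 1 and 0.32 without PAK1 shRNA replicate 2. In each of these fits the call was lost too.

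All 4 collagen-binding alpha chains had both PAK1 shRNA arrays above both control arrays, as 42.1% of all genes tested did. Of the 4, 3 were called higher, as 31.0% of all genes tested were. ITGA10, a collagen receptor best known from cartilage, had the largest difference of all integrin and laminin genes. Its log2 intensity was 10.38 and 10.37 in control cells against 14.03 and 13.89 in PAK1 shRNA samples. The log2 fold change was 3.58 (SE 0.08, adjusted p = 5.02e-07), or 12.0-fold. The arrays of a group differed by far less than the groups did. Its probe is shown for that difference, as the first 30 of 60 bases with hg19 coordinates as the scanner files give them.
ITGA10 probe, chr1:145543808-145543867, + strand: ttcccagtggggtggacagtatatcagatg
ITGA1, the receptor with a preference for type IV collagen, was at 9.06 and 9.05 in control cells against 10.81 and 10.85 in PAK1 shRNA samples, a log2 fold change of 1.78 (SE 0.07, adjusted p = 3.71e-06). ITGA2, the collagen receptor of platelets and epithelia, differed by 0.62 (SE 0.08, adjusted p = 0.000481) from 9.24 and 9.21 on the control arrays. ITGA11, a fibroblast receptor for fibrillar collagen, was at 0.21 (95% interval -0.02 to 0.43) and was not called, although 2 other settings (the processed signal scaled to its 75th percentile, and median centring) called it higher, at 0.33 and 0.32.

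ITGA5 and ITGAV bind ligands that carry the arginine-glycine-aspartate motif. ITGA5, the alpha chain of the fibronectin receptor, had a log2 intensity of 11.44 and 11.40 in control cells against 13.80 and 13.87 in PAK1 shRNA samples. Its log2 fold change was 2.42 (SE 0.07, adjusted p = 1.39e-06), or 5.34-fold, and its promoter is printed above. ITGAV, the alpha chain that pairs with several beta chains to bind vitronectin and latent TGF-beta, differed by 0.71 (SE 0.07, adjusted p = 0.000202). ITGA5 and ITGAV were higher on every PAK1 shRNA array than on any control array, as 42.1% of all genes tested were. ITGA2B, the fibrinogen receptor of platelets, was at 0.00 (95% interval -0.17 to 0.18).

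Of the beta chains, 5 of 8 were higher and none was lower, against 31.0% and 31.9% of all genes tested. ITGB3 counted among the 5 by way of the filter, as described below. ITGB1, the partner of most alpha chains, was at 13.27 and 12.99 in control cells against 13.74 and 13.62 in PAK1 shRNA samples, with a log2 fold change of 0.55 (SE 0.11, adjusted p = 0.00479). It was printed in 10 spots on each array, whose standard deviation within an array was at most 0.13. The adjusted p of ITGB1 was 0.119 under the unpaired t-test. ITGB8, which with ITGAV activates latent TGF-beta, was at 11.58 and 11.60 in control cells against 12.95 and 13.25 in PAK1 shRNA samples, a log2 fold change of 1.51 (SE 0.11, adjusted p = 4.01e-05). ITGB5, a vitronectin receptor chain, differed by 0.46 (SE 0.08, adjusted p = 0.00188). ITGB3, the beta chain of platelets and osteoclasts, passed the filter only through the PAK1 shRNA arrays, since it was not well above background on either control array. It read 6.25 and 5.98 in control cells against 7.64 and 7.94 in PAK1 shRNA samples. With both control values at background its fold depends on the background correction. As processed here it read 3.18-fold higher, or 1.67 on the log2 scale, from means of 6.12 in control cells and 7.79 in PAK1 shRNA cells. The log2 difference was 0.89 with normexp fitted on all spots and 1.32 with no background correction. Since the gene entered only through the group in which it was high, its call is a description and no test is given. ITGB6, an epithelial chain that activates latent TGF-beta, was at -0.05 (95% interval -0.22 to 0.13) and ITGB7 at 0.07 (-0.26 to 0.39), and neither was called.

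ITGB2 and the alpha chains that pair with it are best known from leukocytes. ITGB2 had a log2 intensity of 8.60 and 8.57 in control cells against 10.79 and 10.92 in PAK1 shRNA samples, a log2 fold change of 2.27 (SE 0.08, adjusted p = 2.06e-06). Every PAK1 shRNA array was more than 2 log2 units above every control array, on a probe printed in 10 spots an array. A separate ITGB2 probe gave 0.40 and was also called higher, so the mean of both probes was 1.33. ITGAX, an alpha chain of myeloid cells, was at 7.34 and 7.30 in control cells against 9.73 and 9.55 in PAK1 shRNA samples, with a log2 fold change of 2.32 (SE 0.09, adjusted p = 2.84e-06). Its value was 1.54 where the background correction was fitted on all spots and 2.98 with the scanner's processed signal scaled to its 75th percentile. ITGAM, a complement receptor chain, differed by 0.46 (SE 0.11, adjusted p = 0.0103) and ITGAL, the chain of lymphocytes that binds ICAM1, by 0.39. Under the unpaired t-test the adjusted p of ITGAM was 0.151. Without control replicate 2 the log2 fold change was 0.38 for ITGAM, which was then not called, and 0.29 for ITGAL. ITGAL was well above background on 1 of the 2 control arrays and passed the filter only through the PAK1 shRNA arrays. Its call is therefore a description and no test is given. The processed signal scaled to its 75th percentile put ITGAL at 1.61, median centring at 0.68 and cyclic loess at 0.37. ITGAD was at -0.11 (95% interval -0.31 to 0.08) and was not called. Among 6 leukocyte markers, CD14 was higher by 1.32 on the log2 scale, while PTPRC, CD3E and SPI1 were between -0.12 and 0.14 and were not called. LCP2 read 1.09 higher but passed the filter only through the PAK1 shRNA arrays, so its call is a description. The markers' summed linear level, which adds different probes and was mostly CD14, was 18900 to 19800 on the control arrays and 45500 to 49300 on the PAK1 shRNA arrays, no marker was at background on all arrays (LCP2 was on both control arrays), and their part in the difference was not tested.

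The 2 genes that were lower were both alpha chains best known from leukocytes. ITGAE, which pairs with ITGB7 to bind E-cadherin, had a log2 intensity of 11.38 and 11.45 in control cells against 10.29 and 9.72 in PAK1 shRNA samples. Its log2 fold change was -1.41 (SE 0.17, adjusted p = 0.000439), or 2.66-fold lower. The PAK1 shRNA arrays lay further apart than those of any other member that was called, yet both were below both control arrays. Under the unpaired t-test its adjusted p was 0.0747. ITGA4, which binds VCAM1 and fibronectin with ITGB1, was at 7.48 and 7.58 in control cells against 6.46 and 6.30 in PAK1 shRNA samples, with a log2 fold change of -1.16 (SE 0.09, adjusted p = 4.88e-05). The value was -0.61 where the background correction was fitted on all spots and -2.22 with the processed signal scaled to its 75th percentile, a setting that changes both the signal and the scaling. It was -0.92 with median centring and -1.15 with cyclic loess. ITGA9, the alpha chain closest to it, was at -0.05 (95% interval -0.28 to 0.17) and was not called. The ITGAE probe is shown as the largest fall, with hg19 coordinates and its first 30 bases.
ITGAE probe, chr17:3623609-3623668, - strand: tccttggtgaaatatctttcaacaaatctc

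Of the tested genes, 10 had more than 1 probe tested, and in 4 of them the probes disagreed in their call. The probes of these genes are shown for that reason, each by its first 30 of 60 bases and its hg19 coordinates. They are listed with the probe that stands for the gene first. Exon and UTR positions were not analysed here, and genes carry the names given by the array's design.
LAMA3 probe 1, chr18:21534735-21534794, + strand: tctaattttgaattctgaccatggataccc
LAMA3 probe 2, chr18:21375992-21376051, + strand: agtgaaaaggtggccatctacaagccagaa
LAMB1 probe 1, chr7:107564411-107564470, - strand: agactggaaggagaagtccgttcactccta
LAMB1 probe 2, chr7:107599951-107600010, - strand: aattggggacagggtgcttataaaaggagc
LAMA4 probe 1, chr6:112429141-112429200, - strand: ctgttcatagaggacttactaagtgccagc
LAMA4 probe 2, chr6:112506440-112506499, - strand: caacaatgctgagaacacgatgaaaagcct
LAMA4 probe 3, chr6:112537570-112537629, - strand: tgtgccctgcgactgtaatggcaattccaa
LAMA4 probe 4, chr6:112574987-112575046, - strand: agtttcacctgggctaggtcagttcggaaa
ITGA4 probe 1, chr2:182402275-182402334, + strand: gggagcagtgaatcaaggcagacttatgaa
ITGA4 probe 2, chr2:182322335-182322394, + strand: tttggggtagtggccgtttagtgttgaatg
ITGA4 probe 3, chr2:182399600-182399659, + strand: atttcaagtagcttgctacttggacttatt
The LAMA3 probes, at 1.34 and 0.12, lay 158.7 kb apart. LAMB1 showed the same split over 35.5 kb, with 0.89 for the first probe and -0.02 for the second, which read 6.80 and 6.88 in control cells against 6.91 and 6.73 in PAK1 shRNA samples. The mean over both probes was 0.44 for LAMB1, and on such means LAMA3 and LAMB1 were still called higher. In LAMA4 the probes gave 0.66, 1.05, 0.39 and -0.35, and on the fourth control replicate 2 read 7.42 where control replicate 1 read 6.37. The ITGA4 probes gave -1.16, -0.28 and -0.51, all below 0, of which the second was not called and the third was well above background only on the control arrays. The probes of ITGA6, ITGB2, LAMA1, LAMB2 and LAMC3 did not differ in call.

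The partners of integrins and laminins were described by 6 lists holding 94 genes, of which 88 were tested, 42 were higher and 22 lower. That is 47.7% and 25.0%, against 31.0% and 31.9% of all genes tested, with a median log2 fold change of 0.172 against 0.0195. At least 2-fold differences were reached by 19 higher and 3 lower genes, where 8.85% and 8.96% of all genes did. The counts of the single lists that follow stand against the same 31.0% and 31.9%. Some list genes passed the filter through 1 group only, and those called, whose calls are descriptions, lie among the ligands and the proteases. With probes kept only if well above background on all 4 arrays, 40 list genes were higher and 21 lower, against 31.8% and 32.4% of all genes. Among the talins, kindlins and adhesion adaptors, which connect the integrin tail to actin, 14 of 30 were higher and 11 lower (median 0.0464). FERMT2, a kindlin that activates integrins, was at 10.33 and 10.46 in control cells against 11.76 and 11.79 in PAK1 shRNA samples, a log2 fold change of 1.38 (SE 0.08, adjusted p = 1.55e-05). PTK2B, a kinase related to focal adhesion kinase, and ILK, a scaffold bound to the beta tail, were higher by 1.23 and 1.09. CIB1, TLN2 and ITGB1BP1, which bind integrin tails, were lower, at -0.83, -0.80 and -0.74.

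Of the hemidesmosome and tetraspanin partners, 5 of 12 were higher and 1 lower (median 0.172). CD47, an integrin-associated receptor for thrombospondin, was at 13.93 and 13.91 in control cells against 15.91 and 16.08 in PAK1 shRNA samples, a log2 fold change of 2.08 (SE 0.08, adjusted p = 3.77e-06). CD82, a tetraspanin, and COL17A1, a collagen of the hemidesmosome, were higher by 1.89 and 1.37. SLC3A2, the heavy chain of an amino acid transporter that binds the tails of beta chains, was lower by 3.96-fold (-1.98 on the log2 scale). Of the laminins' basement membrane partners 7 of 14 were higher and 3 lower (median 0.241). NTN4, a netrin that binds laminin, was at 10.14 and 10.04 in control cells against 12.17 and 12.28 in PAK1 shRNA samples, with a log2 fold change of 2.14 (SE 0.08, adjusted p = 3.16e-06). COL7A1, the collagen of anchoring fibrils, and AGRN, a proteoglycan that binds laminin, were higher by 1.83 and 1.53. COL18A1, the parent of endostatin, was 4.23-fold lower, with values of 12.10 and 11.91 in control cells against 10.01 and 9.84 in PAK1 shRNA samples, and COL4A4 and FREM2 were lower, at -1.44 and -0.64 on the log2 scale.

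Laminin receptors other than integrins went in both directions, 2 of 5 higher and 3 lower (median -0.311). SDC4, a syndecan of focal adhesions, was at 13.83 and 13.60 in control cells against 15.48 and 16.01 in PAK1 shRNA samples, a log2 fold change of 2.03 (SE 0.18, adjusted p = 8.61e-05), and DAG1, dystroglycan, was higher by 0.56. RPSA, a ribosomal protein also described as a laminin receptor, SDC1 and BCAM were lower, at -0.81, -0.46 and -0.31. Other integrin ligands were higher in 9 of 20 and lower in 3 (median 0.156). ICAM1, the ligand of the ITGB2 integrins, was at 11.02 and 11.02 in control cells against 14.24 and 14.49 in PAK1 shRNA samples, a log2 fold change of 3.35 (SE 0.10, adjusted p = 1.23e-06), which was 10.2-fold. MFGE8, a ligand of ITGAV integrins, and CDH1, the ligand of ITGAE with ITGB7 and also one of the epithelial markers above, were higher by 1.47 and 0.98. ICAM3 and TGFB1 were lower, at -0.86 and -0.28. Of the proteases known to cut laminins, 5 of 7 were higher and 1 lower (median 0.756), among them MMP2 at 1.36, BMP1 at 1.18 and MMP9 at 0.76, and TLL1 was lower at -0.44.

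**Figure D3:**
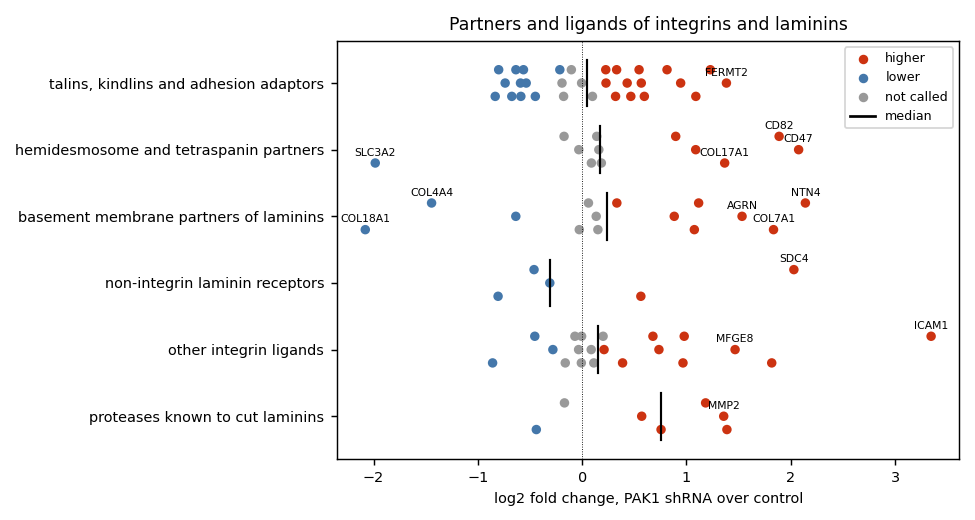
log2 fold change (PAK1 shRNA over control) of every tested gene of the 6 lists of partners, ligands and proteases, coloured by call, with a black line at each list's median. ICAM1 lay farthest to the right, at 3.35, and COL18A1 farthest to the left, at -2.08.

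**Figure D4:**
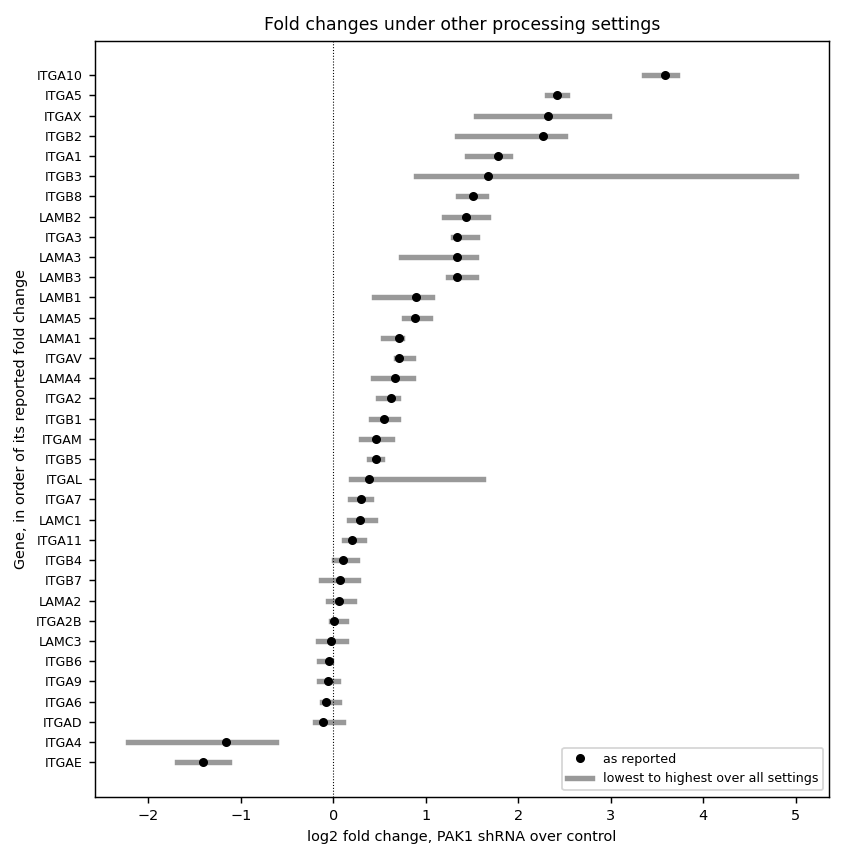
log2 fold change of the tested integrin and laminin genes named in the text as reported (black point) and its range over 17 other processing settings (grey bar), on one axis. ITGB3 had the widest range, from 0.89 to 5.00, and the bars that crossed 0 belonged to genes that were not called.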

How the data were processed

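RNA of 2 control and 2 PAK1 shRNA samples was hybridized to Agilent whole genome arrays. Per the labels the scans were read with Agilent Feature Extraction (version 9.5), and the deposited values are the intensity of every spot, not yet normalized between arrays. A log2 value table that the authors deposited served as an alternative. The scanner files give probe positions in hg19, and promoters are from RefSeq (GRCh38.p14).

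The methods name normexp background correction, quantile normalization and limma, and these were used in that order with an offset of 50, after control spots had been dropped. The normexp parameters were fitted without spots of flagged local background. On all spots, the fitted background mean was -666 and -740 for control arrays but -10.7 and -10.2 for PAK1 shRNA arrays, and without those spots it was between -12.1 and -9.19. Outlier-flagged spots were removed and the spots of a probe averaged. A probe was kept if both arrays of either group were well above background, and each gene was represented by its brightest probe on average. limma 3.58.1 (lmFit and eBayes, R 4.3.3) gave the p-values, Benjamini-Hochberg adjusted and called under 0.05. This fit, without the steps before it, was tested on simulated gene values, in which far fewer genes differed than were called here. The members, lists and tests were chosen with earlier results of these data known. Every member and every cell type marker is named, apart from 2 genes that enter the counts and are not reported here. From a list, up to 3 genes with the largest rise and up to 3 with the largest fall are named among those called that were measured, and unsaturated, on every array. Alternatives changed the background correction, the signal, the scaling, the dim-probe filter, the treatment of flags, the choice of probe, the test or the threshold, added the replicate number as a block, or left out an array.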

Additional observations from a re-analysis of the deposited data

How the results depend on the processing

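Over 36 genes and 17 settings, 571 of 610 values kept their direction and their side of the threshold, 21 lost the call, 3 gained it and 15 changed sign. With an array left out, the median log2 fold change of the integrin and laminin genes was 0.479 to 0.663, where that of all genes was 0.00615 to 0.0231. PAK1 was between -0.86 and -0.66 over the settings. Under the unpaired t-test 1 integrin gene was lower. With a 2-fold threshold 11 integrin and laminin genes were higher, and the lists had 19 higher and 3 lower genes. Values that changed sign belonged only to genes that were not called. With an array left out ITGA2B ranged from -0.025 to 0.036, ITGA9 from -0.16 to 0.050, ITGB7 from -0.13 to 0.27, LAMA2 from -0.054 to 0.17 and LAMC3 from -0.17 to 0.11. Median centring gave ITGA9 0.018, ITGAD 0.11, ITGB7 -0.022 and LAMC3 0.14, the processed signal scaled to its 75th percentile ITGA9 0.024 and LAMC3 0.12, and cyclic loess ITGA6 0.060. The cause was not tested. Median centring and the 75th percentile setting moved the median of all genes to 0.137 and 0.119. Same-numbered arrays did not deviate together (r = 0.00881 over 27517 probes), and the samples share only a number. With the replicate number as a block 24 integrin and laminin genes were higher and 2 lower, where 31.7% and 32.1% of all genes were. The lists then had 41 higher and 21 lower genes, and PAK1 was at -0.75. A slide block could not be fitted with 1 slide. With 2 arrays a group, the number of arrays limits the precision. ITGB3, ITGA4, ITGAX and ITGAL had values that moved most between settings, and of these ITGB3, ITGAL and ITGA4 were close to background.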

Other observations

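Markers of 2 cell types that a line of breast epithelium should lack were measured beside the genes above. Of 5 fibroblast markers, COL3A1 and PDGFRA were not well above background on any array. COL1A1 and DCN were higher in PAK1 shRNA cells by 0.87 and 0.88 on the log2 scale. PDGFRB read 0.58 lower and was well above background on 3 of the 4 arrays. It did not pass the filter in both groups, so its call is a description. In a sum that adds different probes and was mostly DCN, the fibroblast markers came to 4010 to 4760 on the control arrays and 7630 to 7880 on the PAK1 shRNA arrays. All 4 endothelial markers were well above background on all arrays and summed to 1050 to 1090 on the control arrays and 852 to 879 on the PAK1 shRNA arrays. PECAM1, an adhesion molecule of endothelium and platelets, was at -1.56 and VWF at 0.37, both past the threshold in limma with Benjamini-Hochberg adjustment, and CDH5 at 0.15 and KDR at 0.12 were not called.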
